A study of Mus musculus with 40 samples.

Results

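The genes described here are 40 genes of protein folding in the endoplasmic reticulum (ER) and of the unfolded protein response, out of the 55401 genes counted in the kidney cortex of 40 mice. They were chosen by name, as symbols in the count table. The symbols were proposed with earlier results of these libraries known, and which values led to the choice is not recorded. The Akita against wild type differences below are therefore a description of these genes, and no count of them is offered as evidence for the list. The symbol Ddit3 has a second row in the table, which was at 0 counts in every library and was left out. By role, 13 of the genes encode chaperones and foldases of the ER lumen, 7 act in the calnexin cycle and the trimming of N-glycans, 11 in ER-associated degradation, 6 are stress sensors or transcription factors, and 3 are targets of the factors ATF4 and CHOP.

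Proteins that are secreted or sit in membranes fold in the ER, helped by chaperones such as BiP (encoded by Hspa5) and by protein disulfide isomerases that form and rearrange disulfide bonds. When unfolded protein accumulates, the sensors IRE1α (Ern1), ATF6 (Atf6) and PERK (Eif2ak3) become active: IRE1α splices the mRNA of the transcription factor XBP1, ATF6 is cut to release a transcription factor, and PERK slows translation while favouring that of ATF4, which acts on amino acid genes and on CHOP (Ddit3). ATF6 and XBP1 raise genes of chaperones and of ER-associated degradation, which returns misfolded protein to the cytosol for destruction. The proximal tubule of the kidney makes large amounts of membrane transporters and of receptors for filtered protein, all of which pass through the ER.

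All mice were male and on a C57BL/6J background, either heterozygous for the Ins2-Akita allele (Akita) or wildtype (WT) littermates. The treatment protocol in the labels of every library runs from 6 to 22 weeks of age. It describes daily gavage for the ethanol vehicle and MitoGamide, and the route in the water arm is not given in the sources used here. The mutated insulin misfolds in the beta cells of the pancreas, so the allele makes the mice diabetic without an agent. The ethanol arm held Akita and WT mice given the vehicle (10% ethanol in water) or MitoGamide, a mitochondria-targeted dicarbonyl scavenger, at 10 mg/kg in that vehicle. The water arm held Akita and WT mice given water or MitoQ, a mitochondria-targeted antioxidant whose dose the labels do not give. Each of the 8 groups held 5 mice, each sequenced as its own library after depletion of ribosomal RNA.

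The values are estimated counts of reads, given as CPM, counts scaled to a common library total, after TMM normalization over the 40 libraries, in the order of the replicate numbers. Library totals ranged from 11690029 to 24321424 in the ethanol arm and from 9106654 to 23109915 in the water arm. The 10 most abundant genes took between 28.6% and 38% of the counts in the ethanol arm and between 24.8% and 72.5% in the water arm, where 5 of 20 libraries were over 45%: replicates 2 and 5 of Akita on water, replicates 3 and 4 of WT on water and replicate 3 of WT on MitoQ. Ins2, which carries the mutation, was at 0.119 CPM or less, so that its counts give no check of the genotype labels. The marker genes of the proximal tubule fit the label of renal cortex, with a summed level of 10 markers between 10300 and 20200 CPM. Of 5 pancreas markers, Ins1 and Prss1 were at 0 in every library and Ins2 and Cpa1 in 31 and 38 of 40, while Cela1 was at 7.01 to 71.1 CPM. Of 5 adrenal markers, Cyp11b2 was at 0 in every library and 3 others at 0.396 CPM or less, while Star was at 2.33 to 6.32 CPM.

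Several of the genes carry the ER stress response element (ERSE), which is CCAAT and CCACG with any 9 bases between them, to which ATF6 and NF-Y are known to bind. In the 250 bases before the start, from RefSeq on GRCm38.p6, windows were at hand for 36 of the 40 genes and missing for Hyou1, Manf, Atf6 and Derl1. The ERSE letters, searched on both strands, stood in 9 of the 36, and in 0.13% of all 27025 genes with a window. By window, they stood in 0.113% of all 32851 promoter windows of this length. The stretches are shown because they hold letters shared by several of the genes with the largest differences. Capitals mark the fixed letters of the motif, which reads CGTGG to ATTGG where it lies on the opposite strand:
Hspa5, chr2:34772020-34772049, plus strand: cttcaCCAATcggaggcctCCACGacgggg
Hsp90b1, chr10:86705617-86705676, minus strand: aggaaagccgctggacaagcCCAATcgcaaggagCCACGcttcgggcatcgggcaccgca
Hsp90b1, chr10:86705512-86705571, minus strand: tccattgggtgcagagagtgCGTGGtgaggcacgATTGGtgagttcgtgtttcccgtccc
Pdia6, chr12:17266471-17266530, plus strand: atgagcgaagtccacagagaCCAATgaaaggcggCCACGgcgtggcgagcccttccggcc
Creld2, chr15:88819500-88819559, plus strand: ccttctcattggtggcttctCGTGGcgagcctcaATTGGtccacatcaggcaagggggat
Dnajc3, chr14:118937807-118937866, plus strand: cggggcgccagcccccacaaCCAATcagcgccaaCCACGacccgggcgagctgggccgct
Calr, chr8:84847054-84847113, minus strand: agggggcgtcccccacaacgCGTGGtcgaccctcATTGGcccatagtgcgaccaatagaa
Canx, chr11:50325779-50325838, minus strand: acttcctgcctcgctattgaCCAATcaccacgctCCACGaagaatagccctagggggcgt
Syvn1, chr19:6046512-6046571, plus strand: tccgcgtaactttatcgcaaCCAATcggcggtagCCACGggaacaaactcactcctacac
Derl3, chr10:75893222-75893281, plus strand: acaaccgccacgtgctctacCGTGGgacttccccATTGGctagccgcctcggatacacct

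Hsp90b1 held 2 matches, 1 on each strand, and the other 8 genes held 1 each. The first base of the matches lay between 212 and 44 bases before RefSeq's start. The stretch of Hspa5, and that of Asns below, lie within the gene as placed by the GENCODE annotation, whose start differs from RefSeq's. The C/EBP-ATF response element (CARE), TGATGNAA, which ATF4 is known to bind, stood in 3 of the 36 genes and in 3.91% of all genes with a window (3.45% of all windows). Herpud1, whose product is part of the degradation complex, also held ERSE-II, which is ATTGG and CCACG with any 1 base between them and was in 0.0304% of all windows. These stretches are shown for the contrast of their letters with those above. In the first of them the capitals mark ERSE-II and in the others CARE, on either strand:
Herpud1, chr8:94386353-94386412, plus strand: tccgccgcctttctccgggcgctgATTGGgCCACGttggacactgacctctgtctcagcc
Herpud1, chr8:94386291-94386350, plus strand: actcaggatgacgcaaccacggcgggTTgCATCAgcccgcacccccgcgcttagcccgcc
Asns, chr6:7693214-7693243, minus strand: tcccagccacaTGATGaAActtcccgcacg
Chac1, chr2:119351023-119351082, plus strand: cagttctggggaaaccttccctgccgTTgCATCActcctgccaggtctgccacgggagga

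The XBP1 element TGACGTGG (UPRE) was in 0.603% of all genes with a window (0.563% of all windows) and in 0 of the 36. A match is a stretch of letters and was not tested for binding in these mice.

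Compared per kilobase of exon, the genes spanned a wide range of levels over the 40 libraries. Calr was highest at 173 CPM per kb, followed by P4hb at 122, Hsp90b1 at 116, Canx at 108, Herpud1 at 96.6 and Hspa5 at 86.0 CPM per kb. The lowest were Derl3 at 0.556, Trib3 at 0.250 and Chac1 at 0.203 CPM per kb. The top of the order held genes of several roles, and lumenal genes were also found low in it, with Sdf2l1 at rank 34 of the 40.

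The question of the genotype contrasts was which of these genes differ between diabetic and WT kidneys under each treatment. Each of the 4 contrasts was fitted on its own 10 libraries, and they share no library. On the ethanol vehicle, 25 of 39 tested genes were lower in Akita mice with an adjusted p under 0.05 in edgeR's quasi-likelihood test and 0 were higher, where 16.4% of all genes tested were called and 8.22% of all genes tested were called lower. Under MitoGamide, 13 of 37 were lower and 0 higher, where 14.3% of all genes were called and 6.60% lower. On water 0 of 38 were called, where 0.552% of all genes were, and 8 of the 38 had an unadjusted p under 0.05, against 7.56% of all genes. Under MitoQ 0 of 38 were called, where 0.557% of all genes were, and 10 of the 38 had an unadjusted p under 0.05, against 9.06% of all genes. With DESeq2, 1 gene was called on water (Sdf2l1, -1.13), where it called 1.93% of all genes, and 2 under MitoQ (Hspa5, -0.51, and Calr, -0.44), where it called 2.29%. With all 40 libraries in one fit the ethanol contrast called 14 of the genes and 4.92% of all genes, and that under MitoGamide 13, of which 10 were shared with the 13 above, and 12.4% of all genes. Without replicate 4 of WT on MitoGamide the latter called 8, and 8.33% of all genes.

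The direction was shared more widely than the calls. The median log2 fold change of the genes tested was -0.42 on ethanol, -0.23 under MitoGamide, -0.30 on water and -0.17 under MitoQ, while the median over all genes lay between -0.002 and 0.010. Of the 37 genes tested in every one of the 4 contrasts, 26 had estimates below 0 in all 4 (70.3%, against 19.9% of 16406 genes). Herpud1 and Ern1 had estimates above 0 in all 4, that of Ern1 being 0.002 on water and 0.005 under MitoGamide. When 1 library at a time was left out, 21 of the 26 kept estimates below 0 in every such fit of the 4 contrasts, and neither Herpud1 nor Ern1 stayed above 0 throughout. In one fit over all 40 libraries with the treatment as a factor, 24 of 38 tested genes were lower and 0 higher, where 22.8% of all genes were called and 11.8% lower. This fit holds the same libraries and is not independent of the 4. In fits added after the data were seen, the ethanol arm alone called 25 of the genes, where 31.2% of all genes were called, and the water arm alone, where 4.31% were, called 7, namely Hspa5, Calr, Pdia6, Sdf2l1, Hyou1, Xbp1 and Os9, all lower.

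**Figure D1:**
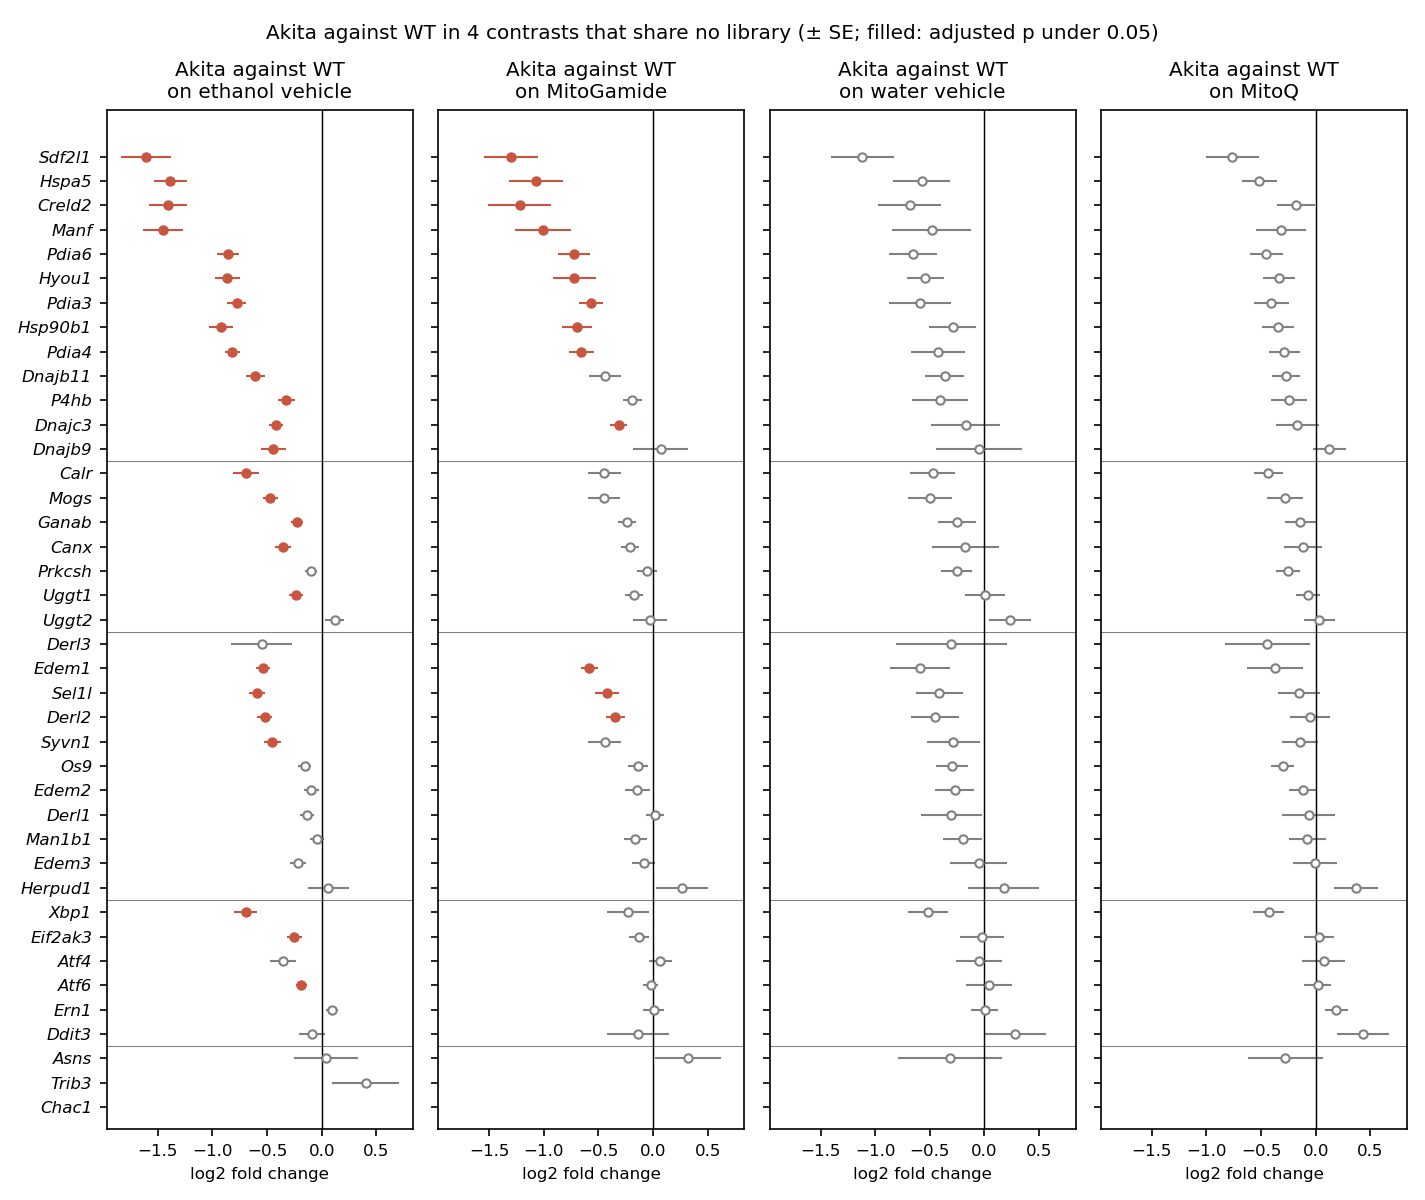
Log2 fold change of each gene between Akita and WT mice (x axis, with standard error) in the 4 contrasts, with genes grouped by role and filled points for an adjusted p under 0.05 in edgeR. All 25 calls on ethanol and all 13 under MitoGamide lie below 0, and the contrasts of the water arm hold 0 calls with most points below 0.

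In bulk tissue, fewer cells of a type and less RNA per cell cannot be told apart. Markers of the S3 segment of the proximal tubule moved with the genotype: 4 of 5 were lower in Akita mice in the fit over all libraries and 0 higher, where 11.8% of all genes were called lower and 11% higher, with a summed level between 385 and 1590 CPM in Akita and between 1160 and 2820 CPM in WT mice. The S3 medians by group were 933 in Akita and 2020 in WT mice on ethanol, 921 and 2230 under MitoGamide, 685 and 2080 on water, and 1150 and 2320 CPM under MitoQ. Atp11a held the most of this sum (means 570 in Akita and 1410 CPM in WT mice), while Slc5a8 was at 242 and 252 CPM. Of 10 general proximal tubule markers, 4 were lower and 0 higher, with summed medians of 13500 in Akita and 17100 CPM in WT mice, and Cubn, Aqp1, Slc13a3 and Slc5a12 had higher means in Akita mice. Other lists moved as well. Principal cell markers were higher in 3 of 4 cases (medians 184 in Akita and 121 CPM in WT mice), podocyte markers in 3 of 5 (279 and 246 CPM) and injured tubule markers in 2 of 3 tested (645 and 307 CPM), of which Spp1 held the most (means 700 and 295 CPM). Of the distal convoluted tubule markers 1 of 3 was higher (972 and 749 CPM), of those of fibroblasts 2 of 5 (158 and 139 CPM) and of those of endothelium 2 of 5, with 1 lower (217 and 224 CPM). Macrophage markers were lower in 2 of 5 cases (36.7 and 50.5 CPM), those of the thick ascending limb in 1 of 4 (1380 and 1660 CPM) and those of liver in 1 of 5 (45.9 and 51.4 CPM). Of the markers of intercalated cells, T cells, adrenal cortex, adipocytes and pancreas 0 were called, though several did not average the 10 counts needed for a test. Among these, Ins1, Prss1 and Cyp11b2 were at 0 in all 40 libraries, Cpa1 in 38, Lep in 33 and Ins2 in 31. For such markers the absence of a call says nothing of a change. Plasma cells are rich in ER chaperones. Of 8 markers of B and plasma cells 3 were tested and 0 called, with a summed level between 15.6 and 122 in Akita and between 22.4 and 78.1 CPM in WT mice, most of it from Igkc (6.32 to 95.6 CPM) and Jchain (3.57 to 23.3 CPM), while Cd79a and Mzb1 had medians of 0.141 and 0.465 CPM. The share of counts on mitochondrially encoded genes was between 21.6% and 28.7% in Akita and between 20.1% and 22.6% in WT mice on ethanol, and between 28% and 35.4% in Akita and between 24.6% and 27.8% in WT mice under MitoGamide, where the genotypes did not overlap. On water it was between 24.2% and 43.1% in Akita and between 14.3% and 37.3% in WT mice, and under MitoQ between 25.5% and 36.7% and between 24.7% and 49.2%. The share of the 10 most abundant genes was between 30.8% and 38% in Akita and between 28.6% and 31.3% in WT mice on ethanol, and between 35.6% and 37.8% and between 29.9% and 36% under MitoGamide. The part of these cell type markers and shares in the results was not tested.

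The chaperones and foldases of the ER lumen held the largest differences. On ethanol 13 of 13 were lower in Akita mice with an adjusted p under 0.05, where 8.22% of all genes were called lower, and in 12 of them the highest Akita mouse was below the lowest WT mouse (on CPM normalized within the contrast), which held for 6.52% of all genes. With all 40 libraries in one fit the ethanol calls of P4hb, Dnajb9 and Dnajc3 were lost. Under MitoGamide 10 of 13 were called lower, where 6.60% of all genes were, and in 6 every Akita mouse was below every WT mouse, as in 5.97% of all genes. Of these 10 calls, that of Hyou1 was kept in 5 of 10 fits that left out 1 library, those of Manf and Dnajc3 in 8 of 10 each, and the other 7 in all 10. On water 13 of 13 and under MitoQ 12 of 13 had a lower mean in Akita mice, with 0 called, where 0.552% and 0.557% of all genes were. Over all genes, 50.4% on water and 49.7% under MitoQ had an estimate above 0. In some libraries, described below, these genes were high or low together, so that their directions are not separate observations. The median log2 fold change of the 13 was -0.86 on ethanol, -0.69 under MitoGamide, -0.48 on water and -0.32 under MitoQ.

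Hspa5 (ENSMUSG00000026864.13, chromosome 2, 34771970 to 34777547 on GRCm38) encodes BiP, the main Hsp70 chaperone of the ER. Its level on ethanol was 177, 180, 158, 233 and 197 CPM in the 5 Akita mice and 355, 638, 416, 485 and 600 CPM in the 5 WT mice. With MitoGamide it was 242, 272, 279, 299 and 154 in Akita and 285, 461, 521, 695 and 720 CPM in WT mice. The lowest WT mouse on ethanol was above the highest Akita mouse, and under MitoGamide the lowest WT value, from replicate 1, lay within the Akita range. On water the level was 256, 136, 164, 288 and 200 in Akita and 359, 298, 177, 361 and 365 CPM in WT mice, and with MitoQ it was 252, 294, 200, 189 and 276 and 340, 357, 403, 292 and 347 CPM. In the water arm the groups overlapped, since replicate 3 of WT on water was among the lowest values and, with MitoQ, the lowest WT value was below the highest Akita value. The log2 fold change was -1.39 on ethanol (SE 0.15, adjusted p = 8.25e-05 in edgeR), -1.07 under MitoGamide (SE 0.25, adjusted p = 0.0155), -0.57 on water and -0.52 under MitoQ. Over all treatments the 20 Akita mice were at 222 ± 52.7 CPM and the 20 WT mice at 424 ± 145 CPM (SD), a log2 fold change of -0.90 (SE 0.12, adjusted p = 3.52e-07 in edgeR), and each Akita mouse lay below the WT median of 363 CPM.

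Sdf2l1 (ENSMUSG00000022769.9, chromosome 16, 17130138 to 17132383), a lumenal partner of BiP's J-domain co-chaperones, had the largest fold change of the genes tested in each of the 4 contrasts. On the ethanol vehicle the Akita mice were at 2.16, 3.04, 1.69, 3.51 and 3.61 and the WT mice at 7.37, 12, 6.56, 6.7 and 11.1 CPM. Under MitoGamide the values were 2.6, 3.17, 3.44, 3.16 and 2.56 in Akita and 4.49, 5.36, 6.78, 10.5 and 10.5 CPM in WT mice. Neither pair of groups overlapped. On water Sdf2l1 was at 2.88, 2.28, 2.64, 3.05 and 2.24 in Akita and 6.81, 4.52, 2.61, 8.27 and 6.71 CPM in WT mice, and with MitoQ at 2.85, 4.22, 2.7, 2.01 and 3 and 6.02, 4.46, 3.46, 3.89 and 6.66 CPM. Replicate 3 was the lowest WT mouse in both of these groups and lay within the Akita range, and the other 4 WT mice on water were above every Akita mouse. The log2 fold change was -1.61 on ethanol (SE 0.23, adjusted p = 0.00045 in edgeR), -1.30 under MitoGamide (SE 0.25, adjusted p = 0.00634), -1.12 on water (adjusted p = 0.159) and -0.76 under MitoQ (adjusted p = 0.261). Without replicate 3 of WT on water the value on water was -1.30, with an adjusted p of 0.0337 in edgeR, where 0.461% of all genes were called. At this low level the counts ranged from 16 to 231 per library.

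Creld2 (ENSMUSG00000023272.4, chromosome 15, 88819646 to 88826683) and Manf (ENSMUSG00000032575.16, chromosome 9, 106838312 to 106891979) encode small ER proteins that are secreted on stress. Creld2 was at 9.79, 10, 9.89, 13.1 and 9.5 CPM in Akita and 16.1, 34, 29, 25.8 and 35.1 CPM in WT mice on ethanol. With MitoGamide Creld2 was at 10.7, 11.8, 12.8, 15.3 and 7.36 in Akita and 12.6, 21.2, 27.2, 42.1 and 35.6 CPM in WT mice. The groups on ethanol did not overlap, and under MitoGamide replicate 1 of WT lay within the Akita range. For Creld2 the water arm gave 14.1, 7.19, 10.5, 15.2 and 10.6 in Akita and 18.9, 15.7, 10.5, 32.7 and 16.2 CPM in WT mice on water, and 13.2, 16.4, 11.9, 10.8 and 19 and 19.1, 16.1, 18.2, 13.5 and 14.3 CPM with MitoQ. The values in the water arm overlapped, and replicate 4 was well above the other WT mice on water. The log2 fold changes of Creld2 were -1.41 on ethanol (SE 0.18), -1.22 under MitoGamide (SE 0.29), -0.69 on water (SE 0.29) and -0.18 under MitoQ (SE 0.17). Manf was at 17.6, 17.9, 14.5, 23.6 and 15.4 CPM in Akita and 30.6, 67.9, 45.3, 46.4 and 56.2 CPM in WT mice on ethanol, and at 19.3, 21.4, 23.4, 28.7 and 18.8 and 21.8, 36.1, 42.2, 61.3 and 67.7 CPM with MitoGamide. In the water arm Manf was at 23, 6.39, 12.1, 22.2 and 14.4 in Akita and 30.8, 17.6, 9.86, 24.7 and 27.2 CPM in WT mice on water, and at 20.2, 23.5, 13.6, 15.8 and 23.9 and 27.9, 29.4, 13.2, 21 and 27.6 CPM with MitoQ. As with Creld2, the ethanol groups did not overlap and replicate 1 of WT under MitoGamide fell among the Akita values. The log2 fold changes of Manf were -1.45, -1.01, -0.48 and -0.32 in the same order of contrasts.

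**Figure D2:**
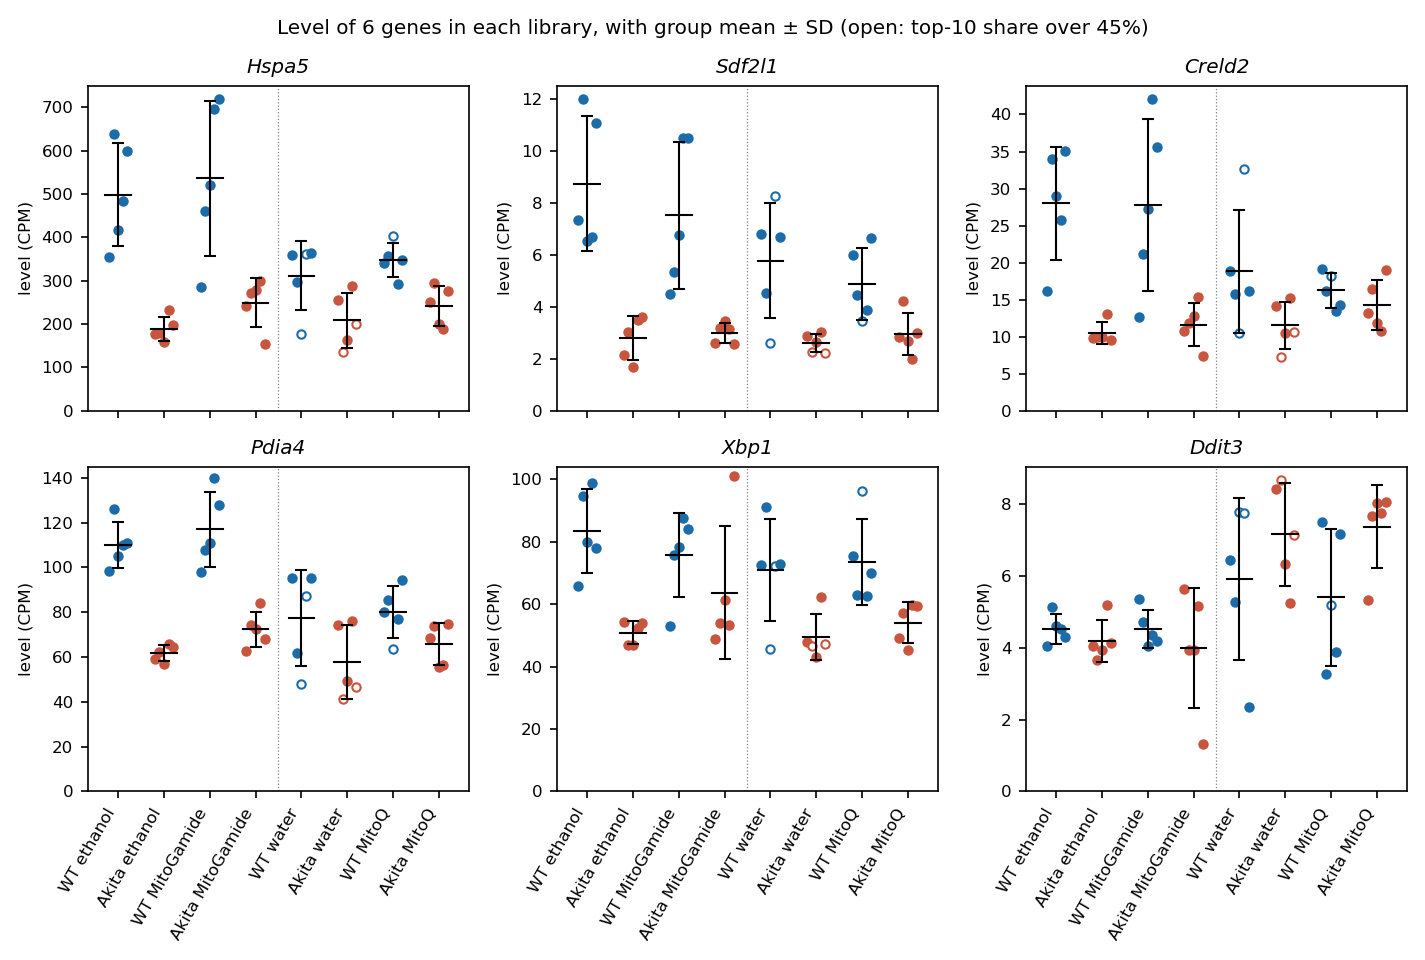
Level in CPM (y axis, linear from 0) of Hspa5, Sdf2l1, Creld2, Pdia4, Xbp1 and Ddit3 in each of the 40 libraries by group (x axis), with WT in blue, Akita in red and group means with SD as black lines. Open points are the 5 libraries whose 10 most abundant genes held over 45% of the counts. Hspa5, Sdf2l1, Creld2 and Pdia4 are lower in Akita mice on ethanol without overlap, whereas Ddit3 is not.

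Hsp90b1 (ENSMUSG00000020048.13, chromosome 10, 86690209 to 86705509) encodes GRP94, the ER member of the Hsp90 family. On ethanol its level was 216, 237, 207, 213 and 284 in Akita and 410, 506, 376, 413 and 512 CPM in WT mice, and with MitoGamide 320, 331, 314, 329 and 236 and 433, 424, 469, 596 and 608 CPM. The Akita and WT ranges were separate under both treatments. The mice on water were at 277, 182, 208, 296 and 207 (Akita) and 319, 224, 203, 333 and 352 CPM (WT), and those on MitoQ at 290, 351, 249, 209 and 270 and 334, 327, 366, 348 and 371 CPM. These ranges overlapped. The log2 fold change was -0.92 on ethanol (SE 0.11, adjusted p = 0.000143 in edgeR), -0.69 under MitoGamide (SE 0.14, adjusted p = 0.00838), -0.29 on water and -0.35 under MitoQ. In the fit over all treatments it was -0.58 (SE 0.09). Hyou1 (ENSMUSG00000032115.14, chromosome 9, 44379490 to 44392369), the nucleotide exchange factor GRP170, was at 88.2, 92.2, 77.5, 103 and 107 in Akita and 137, 190, 156, 172 and 204 CPM in WT mice on ethanol, and at 98, 114, 119, 118 and 65.2 and 121, 145, 166, 227 and 208 CPM with MitoGamide. In the water arm Hyou1 was at 98.1, 77.3, 101, 93.2 and 106 and 156, 132, 94.5, 171 and 138 CPM on water and at 94.5, 124, 104, 77.2 and 117 and 141, 141, 115, 123 and 132 CPM with MitoQ, Akita before WT. Its groups were far apart on ethanol and nearly met under MitoGamide, at 119 and 121 CPM, and the log2 fold changes were -0.86, -0.72, -0.54 and -0.34 on ethanol, MitoGamide, water and MitoQ.

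Dnajc3 (ENSMUSG00000022136.8, chromosome 14, 118937976 to 118981697) encodes a J-domain co-chaperone of BiP that also inhibits eIF2α kinases. Its level was 111, 105, 108, 103 and 118 in Akita and 149, 157, 137, 141 and 151 CPM in WT mice on ethanol, and 117, 127, 119, 132 and 130 and 148, 149, 154, 165 and 179 CPM with MitoGamide. The differences were smaller than those of BiP but the ranges were separate in both. Water gave 109, 46.9, 72, 122 and 64.3 in Akita and 116, 70.3, 54.7, 83.9 and 142 CPM in WT mice, and MitoQ gave 115, 92.8, 83.8, 82.6 and 102 and 106, 121, 58.2, 120 and 127 CPM. Here both genotypes spread over a wide range, from 46.9 to 142 CPM on water. The log2 fold change was -0.42 on ethanol (SE 0.06) and -0.32 under MitoGamide (SE 0.08), and the SE on water was 0.31. Of the other J-domain genes, Dnajb11 had log2 fold changes of -0.61, -0.44, -0.36 and -0.27 on ethanol, MitoGamide, water and MitoQ, with a call on ethanol. Dnajb9 (ERdj4), which keeps IRE1α inactive, was called on ethanol (-0.44, SE 0.12) but was at 0.07 under MitoGamide, -0.05 on water and 0.12 under MitoQ, and was the single lumenal gene without a call over all treatments, where the call of Dnajc3 was kept in 18 of 40 fits that left out 1 library. For Dnajb9 the value under MitoGamide rests on replicate 5 of Akita, at 69.6 CPM against 23.5 to 29.1 CPM in the other 4. Without that library it was -0.31 (adjusted p = 0.0486 in edgeR), where 16.9% of all genes were called against 14.3% with it.

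Protein disulfide isomerases differed by less than BiP in the ethanol arm, and on water Pdia3 and Pdia6 by about as much. Pdia4 (ENSMUSG00000025823.9, chromosome 6, 47796141 to 47813430) was at 59.3, 62.4, 57.1, 65.8 and 64.5 CPM in Akita and 98.4, 126, 105, 110 and 111 CPM in WT mice on ethanol, and at 62.9, 74.3, 72.5, 84 and 68 and 98.1, 108, 111, 140 and 128 CPM with MitoGamide. On water Pdia4 was at 74.5, 41.2, 49.5, 76.2 and 46.6 and 95.2, 61.8, 47.9, 87.3 and 95.1 CPM, and with MitoQ at 68.3, 73.9, 55.5, 56.3 and 74.8 and 80, 85.6, 63.4, 77.2 and 94.3 CPM, Akita before WT. The ethanol arm showed separate ranges and the water arm overlapping ones. Its log2 fold change was -0.82 on ethanol (SE 0.07, adjusted p = 1.57e-05 in edgeR) and -0.66 under MitoGamide (SE 0.11, adjusted p = 0.00406). Pdia3 (ENSMUSG00000027248.13, chromosome 2, 121413775 to 121438687), which works with calnexin and calreticulin on glycoproteins, was at 160, 174, 157, 149 and 196 in Akita and 306, 323, 265, 266 and 291 CPM in WT mice on ethanol, and at 206, 215, 202, 226 and 166 and 263, 284, 309, 347 and 338 CPM with MitoGamide. Pdia3 on water was at 195, 92.7, 121, 181 and 107 in Akita and 255, 164, 123, 206 and 298 CPM in WT mice, and with MitoQ at 221, 192, 145, 124 and 172 and 211, 244, 202, 243 and 236 CPM. The ranges of the ethanol arm were again separate, and the log2 fold changes were -0.78, -0.57, -0.59 and -0.41 on ethanol, MitoGamide, water and MitoQ. Pdia6 (ENSMUSG00000020571.13, chromosome 12, 17266545 to 17284770), an isomerase that also binds BiP and the stress sensors, was at 55.1, 57.8, 48.4, 52.4 and 67.3 in Akita and 105, 120, 86, 96.6 and 108 CPM in WT mice on ethanol, and at 58.1, 65.9, 66.1, 66.2 and 43.9 and 77.8, 93.4, 99.9, 120 and 117 CPM with MitoGamide. Pdia6 was at 68, 38.3, 45.8, 62.6 and 43.2 and 95.6, 72, 52.7, 86.2 and 101 CPM on water and at 69.4, 66.6, 55.8, 42.8 and 58.8 and 79.4, 89.4, 64, 87.4 and 81.9 CPM with MitoQ, Akita before WT. Its log2 fold changes, -0.86, -0.72, -0.66 and -0.45 in that order, spanned a narrower range than those of Hspa5. P4hb, the classical protein disulfide isomerase, differed by -0.33 on ethanol (SE 0.08) with separate ranges, and by -0.19, -0.41 and -0.24 in the other 3 contrasts without a call.

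The summed level of the 13 lumenal genes shows how mice of a group differ. It lay between 1239 and 1459 CPM (median 1321) in Akita and between 2108 and 2714 CPM (median 2253) in WT mice on ethanol. Under MitoGamide it lay between 1372 and 1753 CPM (median 1642) in Akita and between 1911 and 2974 CPM (median 2430) in WT mice. The genotypes were separate under both. On water it lay between 872.2 and 1570 CPM in Akita and between 1031 and 2100 CPM in WT mice, and under MitoQ between 1134 and 1573 CPM in Akita and between 1591 and 1869 CPM in WT mice. The genotypes overlapped on water and were narrowly separate under MitoQ, at 1573 and 1591 CPM. In some libraries nearly all of the genes were high or low together: in WT mice on MitoGamide, 13 of 13 were below the group's median in replicates 1 and 2, while 12 in replicate 4 and 13 in replicate 5 were above it, and on water replicate 3 of WT and replicate 2 of Akita were below it for 13 of 13. Other libraries were mixed, such as replicate 4 of Akita on ethanol with 7 genes above and 6 below, and replicate 1 of WT on MitoQ with 4 above and 6 below. Those 2 libraries on water had 49.0% and 61.8% of their counts on the 10 most abundant genes, while replicate 4 of WT on water (46.7%) was at 1781 CPM and replicate 3 of WT on MitoQ (72.5%) at 1591 CPM. The part of this share in the levels of the water arm was not tested. Without the 5 libraries over 45%, 0 of the genes were called on water and 0 under MitoQ, where 0.0217% and 1.47% of all genes were. These fits compare fewer mice, since water lost replicates 2 and 5 of Akita and 3 and 4 of WT, and MitoQ lost replicate 3 of WT. They cannot tell the part of these libraries from that of the smaller groups.

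**Figure D3:**
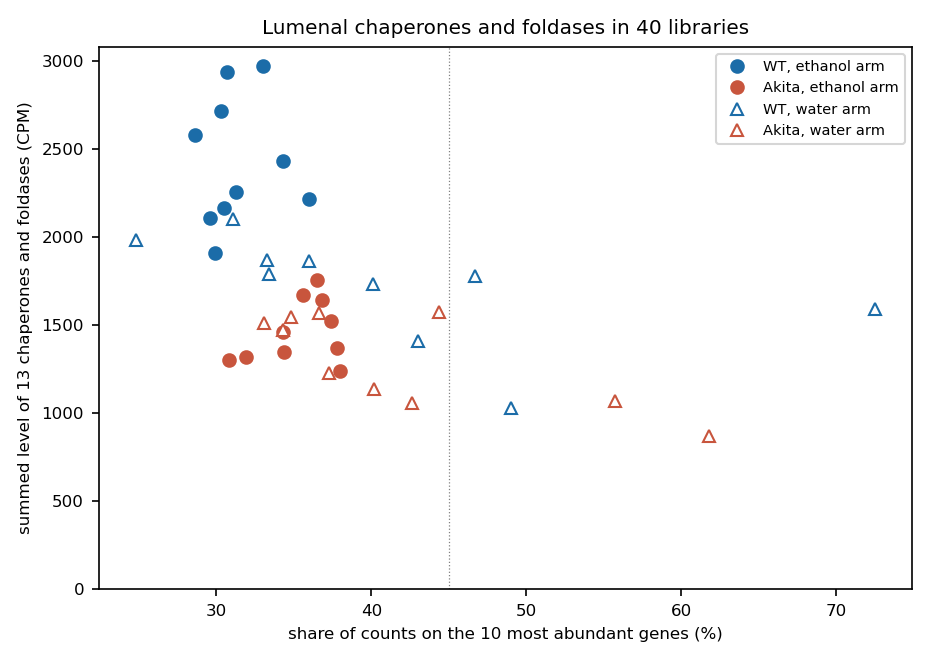
Summed level in CPM of the 13 lumenal chaperones and foldases (y axis, from 0) against the share of counts on the 10 most abundant genes (x axis, percent) in the 40 libraries, by genotype (blue WT, red Akita) and arm (filled circles ethanol, open triangles water). In the ethanol arm the WT mice lie between 1911 and 2974 CPM and the Akita mice between 1239 and 1753 CPM, and the 5 libraries beyond the dotted line at 45% all belong to the water arm.

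Genes of the calnexin cycle, which holds glycoproteins in the ER until they fold, differed less. On ethanol 5 of 7 were lower in Akita mice, and over all treatments 4 of 7, Calr, Mogs, Ganab and Prkcsh, where 8.22% and 11.8% of all genes were called lower. With all 40 libraries in one fit the ethanol contrast kept the call of Calr and lost those of Canx, Ganab, Mogs and Uggt1. Over all genes that fit called 4.92% in this contrast. Calr, the lumenal lectin calreticulin, was called on ethanol and had estimates below 0 in the other 3 contrasts, with log2 fold changes of -0.69 on ethanol (SE 0.12, adjusted p = 0.00144 in edgeR), -0.45 under MitoGamide (adjusted p = 0.0673), -0.47 on water and -0.43 under MitoQ, where every Akita mouse was below every WT mouse, as in 1.45% of all genes. Over the 20 mice of each genotype Calr was at 309 ± 56.0 in Akita and 446 ± 63.4 CPM in WT mice (SD). Its membrane-bound counterpart Canx was called on ethanol (-0.35, SE 0.07) but not over all treatments (-0.23, adjusted p = 0.0682 in edgeR). The glucosidases that trim the glycan, Mogs (glucosidase I) and Ganab (the catalytic subunit of glucosidase II), were at -0.44 and -0.23 over all treatments, and Prkcsh, the other glucosidase II subunit, at -0.18. The call of Prkcsh was lost in 3 alternatives and kept in 6, and that of Ganab was lost in 2 and kept in 7. Both were kept in 40 of 40 fits that left out 1 library. Uggt1, which marks misfolded glycoproteins for another round, was called on ethanol (-0.23, SE 0.07), a call kept in 5 of 10 fits that left out 1 library, and its paralog Uggt2 had positive estimates in 3 of the 4 contrasts, up to 0.23 on water, with no call.

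Among the 11 genes of ER-associated degradation, 4 were lower on ethanol, 3 of those 4 also under MitoGamide, and 7 over all treatments, where 8.22%, 6.60% and 11.8% of all genes were called lower. With all 40 libraries in one fit the ethanol calls of Edem1 and Syvn1 were lost and those of Sel1l and Derl2 were kept. Of the calls under MitoGamide, that of Edem1 was kept in 10 of 10 fits that left out 1 library and those of Sel1l and Derl2 in 6 of 10 each. Edem1 (ENSMUSG00000030104.9, chromosome 6, 108828641 to 108859356), a mannosidase-like protein that directs glycoproteins to degradation, was at 84.7, 74.3, 74.4, 68.8 and 80.9 in Akita and 119, 111, 107, 112 and 115 CPM in WT mice on ethanol, and at 69.4, 82.9, 75.6, 80.8 and 68.9 and 110, 112, 119, 114 and 124 CPM with MitoGamide. In the water arm Edem1 was at 69.5, 32.7, 54.8, 70.3 and 47.1 and 111, 58.5, 51.1, 80.5 and 113 CPM on water and at 78, 65.6, 62.9, 51.2 and 77.9 and 92.8, 102, 35, 98.4 and 104 CPM with MitoQ, Akita before WT. The groups of the ethanol arm were narrow and separate, and with MitoQ the WT mice lay above every Akita mouse apart from replicate 3, at 35.0 CPM. The log2 fold change of Edem1 was -0.54 on ethanol (SE 0.06, adjusted p = 0.000127 in edgeR), -0.58 under MitoGamide (SE 0.08, adjusted p = 0.00121), -0.59 on water (SE 0.28) and -0.37 under MitoQ (SE 0.26).

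Sel1l (ENSMUSG00000020964.14, chromosome 12, 91806043 to 91849157), the adaptor of the HRD1 ubiquitin ligase, was at 91.8, 87.9, 79.4, 88.1 and 88.8 in Akita and 116, 130, 139, 150 and 130 CPM in WT mice on ethanol, and at 95.1, 95.8, 93.1, 111 and 97.3 and 111, 117, 140, 161 and 145 CPM with MitoGamide. On water Sel1l was at 89, 48.5, 70, 88.9 and 66.5 in Akita and 107, 83.5, 65, 109 and 119 CPM in WT mice, and with MitoQ at 92.6, 101, 78.4, 71.7 and 98.1 and 99.3, 115, 57.7, 107 and 110 CPM. Its ranges were separate on ethanol and met under MitoGamide, where the highest Akita and the lowest WT mouse were at about the same level. Derl2 (ENSMUSG00000018442.13, chromosome 11, 71007164 to 71019841), a derlin of the same export channel, was at 19.9, 20.4, 19.1, 20.9 and 21.4 in Akita and 32, 32, 26.8, 28.4 and 28.8 CPM in WT mice on ethanol, and at 23.1, 25.6, 20.9, 23.1 and 20.7 and 26.5, 28.6, 28.9, 31.2 and 32.2 CPM with MitoGamide. Derl2 in the water arm was at 21.4, 12.3, 15.9, 18.8 and 14 and 30.7, 17.5, 17.2, 19.9 and 27.9 CPM on water and at 23.6, 22.1, 19.1, 17.8 and 19.6 and 24.3, 22.5, 11.5, 21.5 and 24.9 CPM with MitoQ, Akita before WT. The log2 fold changes were -0.59 and -0.52 on ethanol, -0.42 and -0.34 under MitoGamide, -0.41 and -0.45 on water, and -0.15 and -0.06 under MitoQ for Sel1l and Derl2. Syvn1, the HRD1 ligase itself, was called on ethanol (-0.45, SE 0.08), and the lectin Os9 was called over all treatments but in none of the 4 contrasts (-0.24, SE 0.05).

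Herpud1, which recruits the ligase complex and carries ERSE-II and CARE, stood against the others of its group. Its estimates were above 0 in all 4 contrasts without a call, with log2 fold changes of 0.06, 0.26, 0.18 and 0.36 on ethanol, MitoGamide, water and MitoQ (SE from 0.19 to 0.33). Under MitoGamide replicate 5 of Akita was at 445 CPM and the other 4 between 159 and 223 CPM, and without that library the value was -0.08 (adjusted p = 0.628 in edgeR). Leaving out 1 library also turned the estimate on ethanol, in 3 of 10 fits, and on water, in 2 of 10. Over 20 mice each it was at 201 ± 75.8 in Akita and 176 ± 49.6 CPM in WT mice. Derl3 was tested at few counts, between 2 and 24 per library, and was lower over all treatments (-0.64, SE 0.20, adjusted p = 0.017 in edgeR). Edem2 was called over all treatments (-0.17, adjusted p = 0.0358), a call kept in 17 of 40 fits that left out 1 library, while Edem3, Derl1 and Man1b1 were not, with values between -0.10 and -0.13.

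Of the sensors and transcription factors, Xbp1 was the single gene called over all treatments. Xbp1 (ENSMUSG00000020484.19, chromosome 11, 5520659 to 5525893) was counted as a gene, with its spliced and unspliced forms together. On ethanol its level was 54.2, 46.8, 47, 52.3 and 54 in Akita and 65.7, 94.6, 79.9, 98.8 and 77.9 CPM in WT mice, and with MitoGamide 48.7, 53.9, 61.2, 53.4 and 101 and 53.1, 75.8, 78.4, 87.4 and 84 CPM. On water Xbp1 was at 48, 46.7, 43.2, 62.4 and 47.1 in Akita and 72.4, 91.1, 45.6, 72.3 and 72.9 CPM in WT mice, and with MitoQ at 49, 57, 45.3, 59.7 and 59.4 and 75.4, 62.8, 96.2, 62.6 and 69.9 CPM. The ranges were separate on ethanol and with MitoQ. Under MitoGamide replicate 5 of Akita, at 101 CPM, was above every other mouse of this treatment, and in the same library Hspa5 was the lowest of its group. Without this library Xbp1 was called under MitoGamide, at -0.44 (adjusted p = 0.0337 in edgeR), in a fit that called 16.9% of all genes against 14.3% with it. The log2 fold change was -0.70 on ethanol (SE 0.10, adjusted p = 0.000518 in edgeR), -0.23 under MitoGamide (SE 0.19, adjusted p = 0.442), -0.52 on water and -0.43 under MitoQ, and -0.48 over all treatments (SE 0.09, adjusted p = 3.61e-05).

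The 3 sensors differed little. Eif2ak3 and Atf6 were called on ethanol at -0.25 and -0.18, where 8.22% of all genes were called lower. Over all treatments they were at -0.11 and -0.05 without a call. The call of Atf6 on ethanol was kept in 4 of 10 fits that left out 1 library, and that of Eif2ak3 in 8 of 10. Both calls were lost with all 40 libraries in one fit. Ern1 had log2 fold changes of 0.10 on ethanol and 0.19 under MitoQ and near 0 in the other contrasts, with no call and the smallest spread of the 40 genes among WT mice (coefficient of variation 6.12%).

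Atf4 (ENSMUSG00000042406.8, chromosome 15, 80255184 to 80257541) is controlled mainly through translation, which counts of mRNA do not show. It was at 30.2, 34.9, 37.3, 33.9 and 40.4 in Akita and 47.6, 59.3, 38.6, 40.2 and 42.7 CPM in WT mice on ethanol, and at 36.9, 41.1, 39.8, 51.5 and 51.7 and 41.8, 39.4, 43, 47.4 and 43.9 CPM with MitoGamide. On water Atf4 was at 47.9, 32.2, 33.5, 40.5 and 28.5 and 47.6, 24.8, 30.7, 45.3 and 40.6 CPM and with MitoQ at 45.8, 40.1, 40, 29.8 and 40.4 and 40, 30, 22.9, 43.8 and 48.5 CPM, Akita before WT. The groups overlapped in every contrast, and the log2 fold change was -0.35 on ethanol (SE 0.12, adjusted p = 0.053 in edgeR), 0.07 under MitoGamide, -0.05 on water and 0.07 under MitoQ. Ddit3 (ENSMUSG00000025408.15, chromosome 10, 127290774 to 127296288), the gene of the pro-apoptotic factor CHOP, was at 4.05, 3.66, 3.95, 5.19 and 4.14 in Akita and 4.04, 5.14, 4.6, 4.51 and 4.3 CPM in WT mice on ethanol, and at 5.63, 3.93, 3.93, 5.15 and 1.32 and 5.37, 4.71, 4.04, 4.36 and 4.18 CPM with MitoGamide. In the water arm Ddit3 was at 8.41, 8.67, 6.32, 5.25 and 7.13 and 6.45, 5.27, 7.78, 7.74 and 2.34 CPM on water and at 5.32, 7.66, 8.04, 7.76 and 8.05 and 7.51, 3.26, 5.19, 3.89 and 7.16 CPM with MitoQ, Akita before WT. These values overlapped between the genotypes throughout, and the log2 fold changes were -0.09, -0.14, 0.28 and 0.44 on ethanol, MitoGamide, water and MitoQ, with SE between 0.12 and 0.28. Without replicate 5 of Akita the value under MitoGamide was 0.07. The targets of ATF4 and CHOP were scarcely counted: Asns, the asparagine synthetase gene, had 5 to 58 counts per library and log2 fold changes between -0.32 and 0.32 without a call, Trib3 reached the minimum of 10 counts in the ethanol contrast alone (0.40, SE 0.30), and Chac1, with 0 to 14 counts, in none.

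Set beside the promoter letters, 8 of the 9 genes with ERSE were lower in Akita mice with an adjusted p under 0.05 over all treatments, the exception being Canx, and their median log2 fold change was -0.58. Of the 25 tested genes with a window but without ERSE, 14 were called lower, with a median of -0.18. In this fit 11.8% of all genes were called lower and 11% higher. Sdf2l1, Pdia3, Pdia4, Edem1 and Xbp1 were among them, so that low levels were also seen without these letters in the 250 bases. Outside the 40 genes, 26 held ERSE, of which 10 were tested, 1 was lower (Hnrnpa3, -0.20) and 2 were higher (Acacb, 0.47, and Acnat2, 0.40), with a median of -0.02. Asns and Herpud1, with CARE, had 0 calls. As the 40 genes were chosen with results known, the counts of called genes with and without a motif are a description.

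**Figure D4:**
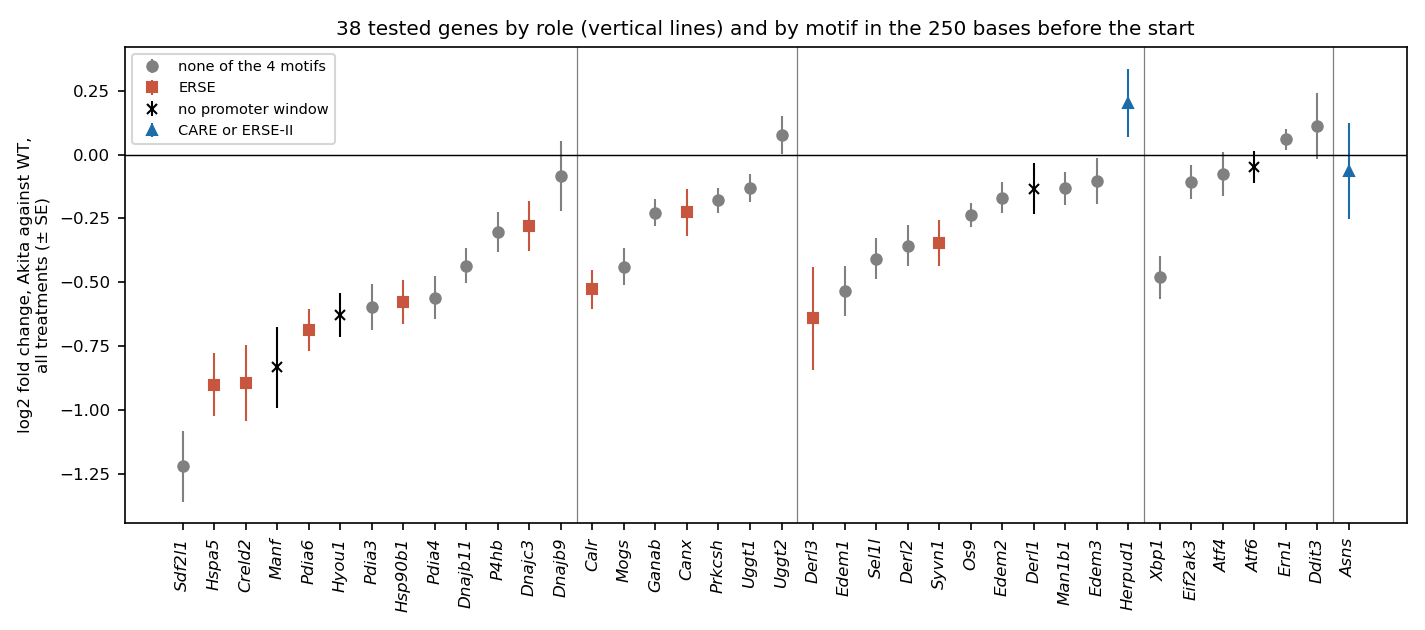
Log2 fold change between Akita and WT mice over all treatments (y axis, with standard error) for the 38 tested genes, ordered within role, with red squares for genes with ERSE, blue triangles for CARE or ERSE-II, grey circles for none of the 4 motifs and crosses where no promoter window was at hand. Squares lie between -0.90 (Hspa5) and -0.23 (Canx), and Sdf2l1 at -1.22 has none of the motifs.

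Other genes of the pathway were counted by list in the fit over all treatments, where 11% of all genes were called higher and 11.8% lower in Akita mice. Of 27 tested genes for further folding and redox steps, 11 were lower and 1 higher, with a median of -0.20, and the smallest p were those of P4ha1, a collagen prolyl hydroxylase (-0.60), Sil1, an exchange factor for BiP (-0.30), and Erp29 (-0.32). Of 25 genes for entry into the ER and transfer of N-glycans, 9 were lower and 0 higher, with a median of -0.16, led by the signal peptidase subunit Sec11a (-0.43), the oligosaccharyltransferase subunit Rpn1 (-0.41) and the translocon subunit Sec61b (-0.41). Genes for folding and for entry were thus called lower more often than higher.

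Of 21 further genes for degradation, 6 were lower and 2 higher, among them Ubxn4 (-0.29), the mannosidase gene Man1c1, which was higher (0.42), and Selenok (-0.26). Of 19 further sensors and regulators, 5 were lower and 4 higher, and those with the smallest p were Mbtps1, the site-1 protease that cuts ATF6 (-0.24), Bok (-0.59) and Atf6b (-0.30), all lower. Of 23 further ATF4 targets tested, 6 were higher, 1 was lower and 16 were not called, with a median of -0.02. Gdf15, a secreted stress factor (0.89), Slc3a2, the heavy chain of amino acid transporters (0.45), and Ddit4, an inhibitor of mTORC1 (0.79), had the smallest p, and each of them is also known to answer to other signals.

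The drug contrasts asked whether the drugs changed these genes. They share the vehicle libraries with the genotype contrasts, so that a high or low vehicle group moves both. With MitoGamide in Akita mice, edgeR's quasi-likelihood test called 0 of 38 tested genes, where 1.26% of all genes were, and 13 had an unadjusted p under 0.05, against 20.9% of all genes. All 13 lumenal genes, whose levels move together in some libraries, had a higher mean than on the vehicle, where 49.6% of all genes had an estimate above 0. Their median log2 fold change was 0.20, and the values of Hspa5 and Hsp90b1 were 0.41 (SE 0.17, adjusted p = 0.194 in edgeR) and 0.41 (SE 0.12, adjusted p = 0.0974). DESeq2 called 4 genes higher, Hsp90b1, Canx, Dnajc3 and Atf6, and 3.73% of all genes higher. Without replicate 5 of the MitoGamide group edgeR called 3, Hspa5, Hsp90b1 and Pdia3, at 0.55, 0.50 and 0.36, and 4.67% of all genes. In WT mice 0 of 38 were called with MitoGamide, as were 0% of all genes, and 1 had an unadjusted p under 0.05, against 10.6% of all genes. The difference of the MitoGamide effect between Akita and WT mice was tested as an interaction, with 0 calls among 39 genes and 0% among all, and 1 gene at an unadjusted p under 0.05, Atf4 at 0.41 (SE 0.16), against 8.32% of all genes.

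With MitoQ, 0 of 38 genes were called in Akita and 0 in WT mice, as were 0% of all genes, and 0 had an unadjusted p under 0.05 in either, against 1.96% and 3.22% of all genes. The estimates for Hspa5 were 0.21 in Akita (SE 0.22) and 0.16 in WT mice (SE 0.20). DESeq2 called 0 of these genes in both, and 0% of all genes in Akita and 0.0112% in WT mice. The interaction of MitoQ and genotype held 0 calls, as did 0% of all genes, and 0 of the 38 had an unadjusted p under 0.05, against 1.14% of all genes.

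The vehicles were compared within each genotype, between animals of both arms. In Akita mice, Ddit3 was lower on ethanol than on water, by -0.74 on the log2 scale (SE 0.16, adjusted p = 0.0301 in edgeR), and was the single gene called among 38, where 12.7% of all genes were called. Over all genes this share was 0.0111% or less, which is 1 or 2 genes, in 6 of 10 fits that left out 1 library. All 5 mice on ethanol, up to 5.19 CPM, were below all 5 on water, from 5.25 CPM, a separation in this direction seen in 5.78% of all genes. The call was kept in 3 of 10 fits that left out 1 library, with adjusted p between 0.0111 and 0.0871 in edgeR. Without the libraries over 45% it was lost (-0.64, adjusted p = 0.137 in edgeR), where 1 of 18164 genes was called. That fit left out replicates 2 and 5 of Akita on water and so compared fewer mice. The call was also lost with a replicate block (-0.73, adjusted p = 0.0704 in edgeR), where 0% of all genes were called. In WT mice Ddit3 differed by -0.37 (SE 0.26, adjusted p = 0.341). With all libraries, 0 of the lumenal genes were called in either genotype. In WT mice 0 of 38 were called, as were 0% of all genes, while 12 had an unadjusted p under 0.05 (27.4% of all genes). There all 13 lumenal genes had a higher mean on ethanol, where 46.2% of all genes had an estimate above 0. Their median was 0.60, with 0.69 for Hspa5 (SE 0.23) and 1.17 for Manf (SE 0.29). Without replicate 5 of WT on water, 14 genes were called, 13 higher and Ddit3 lower (-0.57), where 28.6% of all genes were called. With all 40 libraries in one fit 6 were called, and 8.68% of all genes. In Akita mice the median of the lumenal genes was 0.11, and Hspa5 was at -0.13 (SE 0.20). Without replicate 1 or replicate 4 of Akita on water, 8 and 7 genes were called, Ddit3 included, where 36.2% and 34.5% of all genes were.

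The genotype difference on ethanol was then set against that on water. For the lumenal genes the median difference of the log2 fold changes was -0.39. Of the 13, 12 were more negative on ethanol, where 50.9% of all genes had a difference above 0. An unadjusted p under 0.05 was held by 3 of them: Hspa5 at -0.81 (SE 0.32), Hsp90b1 at -0.63 (SE 0.25) and Manf at -0.98 (SE 0.43). With adjustment over all genes, edgeR's quasi-likelihood test called 0 of the 38 and 0% of all genes, and 4.25% of all genes had an unadjusted p under 0.05. The larger number of calls on ethanol than on water was therefore not matched by a call of the difference itself.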

How the data were processed

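RNA from the renal cortex of 40 male mice was sequenced by the authors as single reads with a directional kit after depletion of ribosomal RNA. The authors trimmed reads with Skewer, quantified GENCODE mouse transcripts on GRCm38 with kallisto 0.46.1 and summed them per gene in R 4.0.2, and deposited estimated counts per gene as whole numbers, not scaled between libraries. Spliced and unspliced Xbp1 are therefore counted together.

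From these counts the libraries of each contrast were fitted separately with edgeR 4.0.16 (quasi-likelihood test, TMM) in R 4.3.3. Genes averaging at least 10 counts over the libraries of the contrast were tested, with Benjamini-Hochberg adjustment over all of them, and an adjusted p under 0.05 was a call. Interactions used the 20 libraries concerned, and the fit over all treatments used 40 libraries with treatment as a factor. The scripts were tested on simulated data. DESeq2 1.42.0, RLE normalization, other filters, a replicate block, one fit of all 40 libraries and leaving out each library were the alternatives. CPM in the text used TMM factors over all 40 libraries, and SE was derived from the fold change and its F statistic. Mice of a group are separate animals by the labels, and no pair of libraries in a group was a copy.

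Values in every library are given for genes called in 2 or more of the 4 genotype contrasts or in any drug or vehicle contrast, and for Hspa5, Hsp90b1, Xbp1, Atf4 and Ddit3. From each further pathway list the 3 genes with the smallest p over all treatments are named. The 40 genes and all lists were chosen with earlier results of these data known. Gene positions are those of a GENCODE annotation of GRCm38, in which 99.5% of gene identifiers were found. Promoter windows are from RefSeq on GRCm38.p6 and use RefSeq's start sites, which can differ from the gene positions. Totals between 9106654 and 24321424 counts set the precision, which is lowest for genes with few counts such as Sdf2l1, Derl3 and Asns.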

Additional observations from a re-analysis of the deposited data

Results flagged for a closer look

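In 9 of 128 sets of 5 mice tested, for the genes with values in every library, 1 mouse stood apart from the other 4, with a gap over 0.71 of the range. Chance marks about 1 in 20 such sets.

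In replicate 3 of WT on MitoQ, 3 genes of ER-associated degradation were low: Edem1 at 35.0 CPM (others 92.8 to 104), Sel1l at 57.7 CPM (others 99.3 to 115) and Derl2 at 11.5 CPM (others 21.5 to 24.9). This library had 72.5% of its counts on its 10 most abundant genes, and the part of that share was not tested. In replicate 5 of Akita on MitoGamide, Xbp1 was high at 101 CPM (others 48.7 to 61.2) and Hsp90b1 low at 236 CPM (others 314 to 331). The remaining mice stood apart in 1 gene each. Sel1l was at 111 CPM in replicate 4 of Akita on MitoGamide (others 93.1 to 97.3), and Creld2 was at 13.1 CPM in replicate 4 of Akita on ethanol (others 9.5 to 10.0). Xbp1 was at 62.4 CPM in replicate 4 of Akita on water (others 43.2 to 48.0), and Ddit3 was at 5.32 CPM in replicate 1 of Akita on MitoQ (others 7.66 to 8.05).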

How the results depend on the processing

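Numbers of the 40 genes called moved as follows. On ethanol 25 became 14 with all 40 libraries in one fit, and on water 0 became 1 with DESeq2 and 2 with all 40 libraries (2.97% of all genes). The MitoGamide genotype contrast went from 13 to 19 with DESeq2 (18.5% of all genes), to 17 with at least 10 counts in every library (15.8%) and to 11 with no filter (5.59%). Under MitoQ the genotype contrast went from 0 to 2 with DESeq2, and the MitoGamide contrast in Akita mice from 0 to 4. Ethanol against water went from 1 to 4 in Akita and from 0 to 2 in WT mice with DESeq2, which called 23.8% and 4.01% of all genes, from 0 to 6 in WT mice with all 40 libraries, and from 1 to 0 in Akita mice without libraries over 45%. The fit over all treatments went from 24 to 7 in the water arm alone, and to 25 in the ethanol arm alone, each with 20 libraries in place of 40. There Atf4 turned from -0.08 to 0.01, and in the ethanol arm alone Ddit3 turned from 0.11 to -0.11, neither called. The single-arm fits and those without libraries over 45%, which hold fewer mice, were chosen after seeing the data. The cause of these shifts was not tested.

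Leaving out each library gave 23 to 26 calls on ethanol (12.2% to 15.8% of all genes) and 0 to 1 on water (0.177% to 0.518%). It gave 8 to 16 under MitoGamide (7.44% to 16.9%) and 0 under MitoQ (0.193% to 1.47%). For MitoGamide in Akita mice it gave 0 to 3 (0% to 4.67%). For ethanol against water it gave 0 to 8 in Akita and 0 to 14 in WT mice (0.00552% to 36.2% and 0% to 28.6%). Over all treatments it gave 22 to 26 (21.3% to 24.6%). The other contrasts stayed at 0. Under MitoGamide Derl2 also lost its call with no filter, the replicate block and all 40 libraries in one fit (adjusted p = 0.0694, 0.0513 and 0.113 in edgeR). Over all alternatives, among the genes called in each contrast and, over all treatments, Atf4 and Ddit3, 1766 values kept their direction and side of the threshold, 130 lost the call and 2 turned.

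The replicate block gave 25 calls on ethanol, 24 of them shared, 13 under MitoGamide, 12 shared, and 24 over all treatments, where 14.5%, 13.7% and 22.7% of all genes were called. It took the call of Ddit3 for ethanol against water in Akita mice (-0.73, against -0.74 without it, adjusted p = 0.0704 in edgeR), where the share of all genes called went from 12.7% to 0. Same-numbered mice did not deviate together in all 5 pairs of any contrast, so the numbers were not taken as pairs.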
